A study of Homo sapiens with 12 samples.

Results

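The fatty acid synthesis and desaturation genes followed here are ACLY, ACACA, FASN, SCD, FADS1, FADS2, ELOVL5, ELOVL6, ACSL3 and ME1. They were taken as a named list, and a probe counted when its detection p-value was below 0.05 on both arrays of at least 1 group in the non-normalized table. Of the 10 listed genes 9 had such a probe, out of 12117 genes tested. These 9 genes had 10 detected probes, among 48701 probes on the array, because ACACA had 2. ACSL3, an acyl-CoA synthetase of lipid droplets, had no probe named to it in the platform annotation and was not analysed here.

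H1299 cells, a line from a human lung carcinoma of the non-small cell kind, were grown in medium with 10% fetal calf serum. They received, for 6 h, GAPDH siRNA by lipofection, GAPDH siRNA bound to PTD-DRBD, or PBS alone as the control, and RNA was taken at 12 h or at 24 h. PTD-DRBD joins a peptide transduction domain, which enters cells, to a domain that binds double-stranded RNA. This gave 6 groups of 2 Illumina arrays: lipofection at 12 h and 24 h, PTD-DRBD at 12 h and 24 h, and control at 12 h and 24 h. The control cells had neither an siRNA nor a carrier, so the effect of a carrier and that of the siRNA cannot be told apart. Whether the 2 arrays of a group stand for separate cultures is not stated, and p-values therefore cover only the spread between the arrays, which may be technical. An exact permutation test of 2 arrays against 2 cannot give a p below 0.333, so tests are those of limma over all genes. In what follows a level is the background-corrected, normalized log2 intensity of a probe, a change is a difference of group means of these levels with its standard error (SE), and n = 2 arrays per group. "Rose" and "fell" are used for changes with a Benjamini-Hochberg adjusted p below 0.05 over all genes.

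Cells make long-chain fatty acids from citrate. ATP citrate lyase (ACLY) splits it to cytosolic acetyl-CoA, acetyl-CoA carboxylase (ACACA) turns that into malonyl-CoA, and fatty acid synthase (FASN) builds palmitate with NADPH, part of which comes from malic enzyme (ME1). ELOVL6 lengthens palmitate and other saturated and monounsaturated chains, SCD places the first double bond, and FADS1, FADS2 and ELOVL5 desaturate and lengthen polyunsaturated chains. Transcription of most of these genes is known to be driven by the sterol regulatory element binding proteins (genes SREBF1 and SREBF2), which INSIG proteins hold at the endoplasmic reticulum, while ME1 is also a known target of NRF2, the oxidative stress factor that binds antioxidant response elements. Many tumour lines keep this pathway active.

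Promoter sequences are shown for the genes whose level changed and that the RefSeq promoter table (GRCh38.p14) holds, so that their known regulatory letters can be set beside the values. The table matched 9 of the 10 listed genes, and FASN had no entry. Each line gives the 250 bases before the gene's RefSeq start, 5′ to 3′ on the gene's strand. Capitals mark matches, on either strand, to the NF-Y letters CCAAT, the Sp1 letters GGGCGG, the E-box CACGTG or the antioxidant response element TGACNNNGC. The sterol element TCACNCCAC was searched too. The ME1 sequence is chr6:83431052-83431301 on the minus strand, ACACA is chr17:37406837-37407086 on the minus strand, SCD is chr10:100346983-100347232 on the plus strand and ELOVL6 is chr4:110198616-110198865 on the minus strand.
ME1: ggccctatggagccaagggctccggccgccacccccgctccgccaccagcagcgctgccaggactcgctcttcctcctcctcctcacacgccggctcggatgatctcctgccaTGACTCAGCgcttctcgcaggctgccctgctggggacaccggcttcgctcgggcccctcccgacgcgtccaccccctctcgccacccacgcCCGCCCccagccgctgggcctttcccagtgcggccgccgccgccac
ACACA: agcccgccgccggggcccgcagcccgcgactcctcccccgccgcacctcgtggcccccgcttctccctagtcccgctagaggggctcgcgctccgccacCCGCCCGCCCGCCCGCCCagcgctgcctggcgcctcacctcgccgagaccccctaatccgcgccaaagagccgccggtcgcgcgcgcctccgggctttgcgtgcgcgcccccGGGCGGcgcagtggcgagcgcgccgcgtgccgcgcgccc
SCD: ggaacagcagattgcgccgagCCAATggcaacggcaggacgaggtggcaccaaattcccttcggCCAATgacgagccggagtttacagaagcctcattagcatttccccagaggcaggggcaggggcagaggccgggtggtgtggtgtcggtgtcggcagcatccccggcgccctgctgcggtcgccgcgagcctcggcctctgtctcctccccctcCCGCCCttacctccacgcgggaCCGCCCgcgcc
ELOVL6: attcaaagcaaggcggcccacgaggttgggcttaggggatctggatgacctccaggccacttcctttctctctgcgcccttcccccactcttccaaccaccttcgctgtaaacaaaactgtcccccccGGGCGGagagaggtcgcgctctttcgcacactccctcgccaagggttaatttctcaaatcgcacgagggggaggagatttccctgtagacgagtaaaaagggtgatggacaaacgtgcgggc

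Among the 9 listed promoters in the table, only that of ME1 held the antioxidant letters. They stood as TGACTCAGC starting at position −137 from the gene start. A second match, on the other strand, started at 12 and reads GCACCGTCA on the gene's strand. The antioxidant letters occurred in 13.6% of the 27305 RefSeq promoters of the same length (250 bases before to 50 after the start). SCD held CCAAT at −229 and −186, and CCAAT was in 4 of the 9 listed promoters against 35.7% of all promoters. Sp1 letters were in 7 of the 9, against 44.6% of all, and CACGTG was in 1 of the 9, that of ELOVL5, against 7.43%. The sterol element letters were in 0 of the 9 and in 1.15% of all promoters. Overlapping matches were each counted, as in the run of Sp1 letters of ACACA. A match is a run of letters and not a shown binding site, and no match says only that these letters are not in this window.

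**Figure D1:**
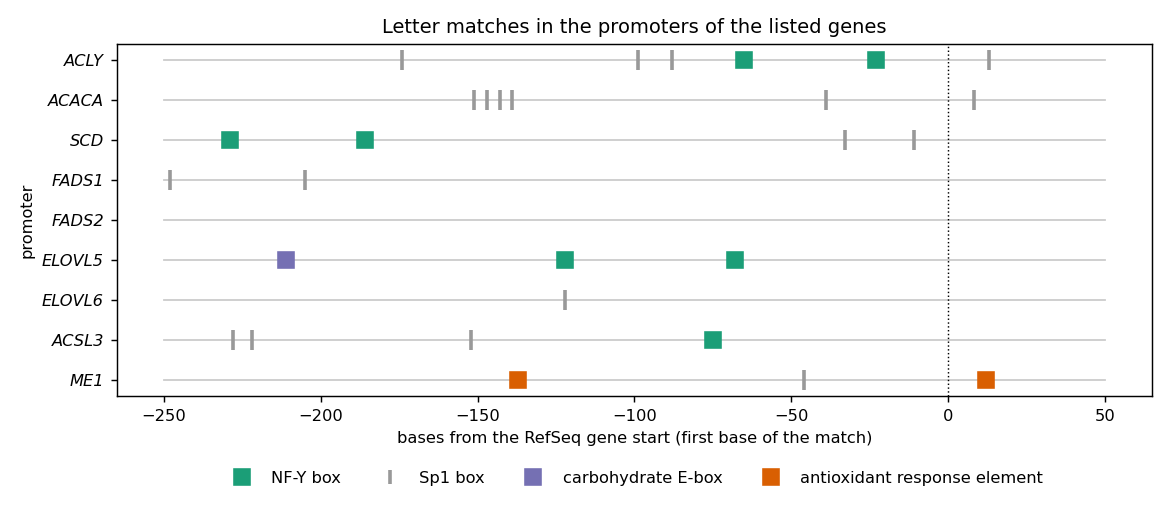
Positions of letter matches in the promoters of the 9 listed genes with a RefSeq entry, in bases from the gene start (x axis, dotted line at the start), 1 row per gene. ME1 alone carries antioxidant response element letters, at −137 and 12, while SCD carries NF-Y letters at −229 and −186.

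The target was lowered in every treated group, as its probe showed. GAPDH changed by −1.26 with lipofection and −3.36 with PTD-DRBD at 12 h, and by −0.96 with lipofection and −2.84 with PTD-DRBD at 24 h (SE 0.08 each, largest limma adjusted p 3.11e-05). Each array detected 17990 to 19097 probes, with a median raw intensity of 61.3 to 73.1. VIM, a mesenchymal gene known to be high in this line, had raw intensities of 31075 to 38915. The keratin KRT8 had 353 to 555 and the epithelial cadherin CDH1 70.3 to 97.1. The 3 probes of KRT18, another keratin, were all detected and spanned 252 to 14201. NKX2-1 and SFTPC, lung epithelial markers, were not detected. Of 25 markers of leukocytes, erythrocytes, fibroblasts, endothelium, adipocytes and hepatocytes, 23 had a probe and 5 were detected. Their 28 probes summed to raw intensities of 1870.1 and 1799.7 with lipofection, 1832 and 1852 with PTD-DRBD and 1885 and 1971 in control at 12 h, and at 24 h to 1668 and 1705 with lipofection, 1644 and 1691 with PTD-DRBD and 1641 and 1716 in control. None of the 5 detected markers passed the test in any comparison. Along the main axis of the differences between replicates, fixed at 12 h, all 4 treated arrays at 24 h lay high (0.326 and 1.502 SD with lipofection, 0.713 and 1.459 with PTD-DRBD) and both 24 h controls low (−0.655 and −0.196). At 12 h the arrays lay between −1.573 and 0.793 SD, and both of these were PTD-DRBD arrays. Because the axis separates treated from control arrays at 24 h, a covariate for it can also take up part of a treatment effect there. At 24 h the second array of each treated group stood farthest out, so the 24 h calls of the fatty acid genes are given with and without these 2 arrays and with the axis as a covariate where either ends a call, and the pathway genes are counted both ways.

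At 12 h with lipofection, ME1 and ELOVL6 rose and none of the 9 genes fell. That is 2 of 9 genes, where 11.9% of all genes tested passed in this comparison (4.95% higher and 6.92% lower). The median change of the 9 genes was 0.17, against −0.00 over all genes. The arrays of lipofection and control did not overlap for 7 of the 9, against 59.3% of all genes. For PTD-DRBD and control at 12 h they did not overlap for 7 of the 9 either, against 50.9% of all genes.

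ME1, the NADPH source, had levels of 8.30 and 8.29 on the lipofection arrays, against 7.47 and 7.58 on the control arrays at 12 h. It rose by 0.77, or 1.70-fold (SE 0.07, limma adjusted p = 6.89e-05). On the PTD-DRBD arrays it was at 7.63 and 7.59, just above both controls, a change of 0.08 that did not pass (adjusted p = 0.531, 95% interval −0.07 to 0.24). Lipofection and PTD-DRBD were compared directly, and ME1 was 0.68 higher with lipofection (SE 0.07, adjusted p = 0.000145). Both lipofection arrays thus stood apart from the other 4 arrays at 12 h.

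ELOVL6, the elongase of palmitate, was the gene that rose with both routes at 12 h. Its levels were 9.19 and 9.01 with lipofection, 9.12 and 9.14 with PTD-DRBD and 8.79 and 8.78 in control. The changes were 0.31 (SE 0.08, adjusted p = 0.0260) with lipofection and 0.34 (SE 0.08, adjusted p = 0.0242) with PTD-DRBD. The 2 changes share the control arrays, whose own levels were the lowest of the 6 at 12 h. ELOVL6 was the only 1 of the 9 genes that passed with PTD-DRBD at 12 h, where 7.88% of all genes passed (3.42% higher and 4.46% lower), and the median change of the 9 was −0.08 against 0.01 over all genes. With only the arrays of the 2 groups compared in the fit, the changes had adjusted p of 0.0592 with lipofection and 0.0694 with PTD-DRBD. Leaving out 1 control array, the first or the second, ended both calls (changes of 0.31 to 0.35, adjusted p between 0.105 and 0.114). The call with lipofection also ended without the first lipofection array (0.22). That with PTD-DRBD ended without either PTD-DRBD array (0.36 without the first and 0.33 without the second).

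FASN, the synthase itself, stood higher on both lipofection arrays at 12 h but did not pass. Its levels were 14.01 and 14.06 with lipofection, 13.77 and 14.01 with PTD-DRBD and 13.72 and 13.63 in control. The change was 0.36 (SE 0.12, adjusted p = 0.0861, 95% interval 0.09 to 0.64) with lipofection and 0.21 (adjusted p = 0.337) with PTD-DRBD. With the authors' normalized values the lipofection change was 0.32 and passed (adjusted p = 0.0457), and it passed in 4 further settings (lowest adjusted p 0.0201). ACLY, the source of cytosolic acetyl-CoA, changed by 0.22 with lipofection (SE 0.08, adjusted p = 0.105), and it too passed on the authors' values (0.21, adjusted p = 0.0466).

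**Figure D2:**
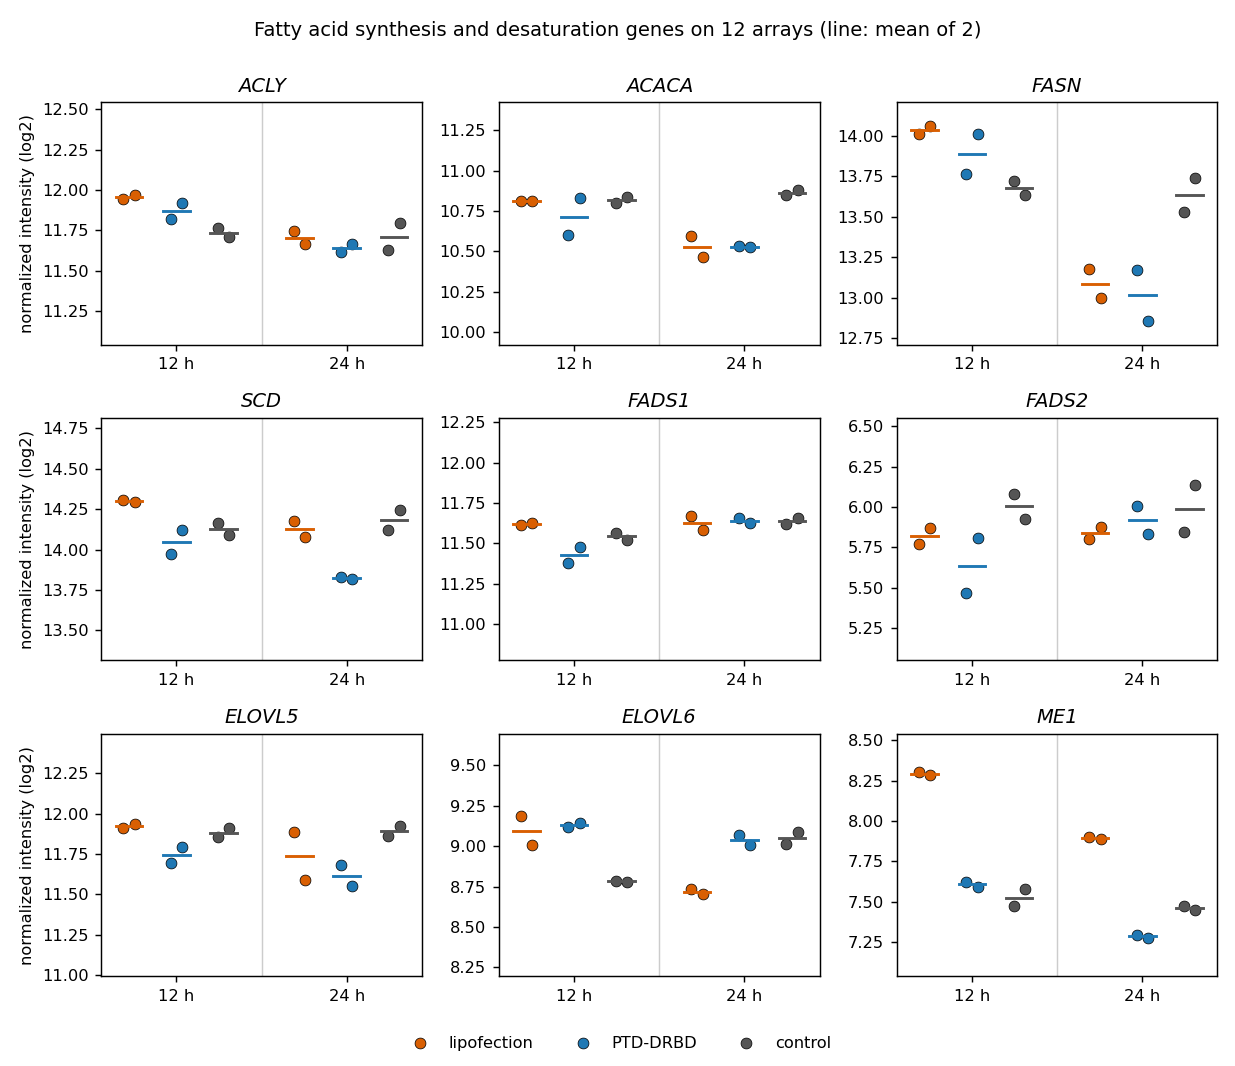
Normalized log2 intensity (y axis, 1 panel per gene, all panels spanning the same number of log2 units) of the 9 genes on the 12 arrays, with lipofection left of PTD-DRBD and control within each time; points are arrays and lines are means of 2. FASN drops to between 12.85 and 13.18 on the 4 treated arrays at 24 h, under both 24 h controls (13.53 and 13.74), and ME1 is highest on the lipofection arrays at both times.

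At 24 h the levels of FASN and ACACA were lower with both routes. With lipofection FASN, ACACA and ELOVL6 fell and ME1 rose, 4 of the 9 genes, where 23.6% of all genes passed (10.6% higher and 12.9% lower). With PTD-DRBD FASN, ACACA and SCD fell and none rose, 3 of 9, where 14% of all genes passed (5.87% higher and 8.15% lower). The median change of the 9 genes was −0.15 with lipofection, where it was −0.00 over all genes, and −0.18 with PTD-DRBD, where it was −0.01. Both comparisons use the same 24 h control arrays, so their shared falls are not independent. In each, 8 of the 9 changes were negative, where 49.3% of all genes had a positive change with lipofection and 48.9% with PTD-DRBD. Some of the negative changes were small, such as −0.01 for ACLY with lipofection and −0.01 for ELOVL6 with PTD-DRBD. Treated and control arrays did not overlap for 4 of the 9 genes with lipofection, against 61.5% of all genes, and for 5 of the 9 with PTD-DRBD, against 60.4%.

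FASN had levels of 13.18 and 12.99 on the lipofection arrays and 13.17 and 12.85 on the PTD-DRBD arrays, against 13.53 and 13.74 in control at 24 h. All 4 treated arrays lay below both controls. The means were 13.09 ± 0.13 with lipofection, 13.01 ± 0.23 with PTD-DRBD and 13.64 ± 0.15 in control (SD, n = 2 each). FASN fell by 0.55 with lipofection, 1.46-fold (SE 0.12, adjusted p = 0.00993), and by 0.62 with PTD-DRBD, 1.54-fold (SE 0.12, adjusted p = 0.0117). When the second arrays of lipofection and PTD-DRBD were left out, the changes were −0.46 for both routes, and neither passed (adjusted p = 0.0532 with lipofection and 0.0971 with PTD-DRBD). With the replicate axis as a covariate they were −0.38 (adjusted p = 0.0391) and −0.43 (adjusted p = 0.0682). The second control array alone, when left out, also ended both calls, at −0.44 with lipofection and −0.52 with PTD-DRBD (adjusted p = 0.0810 and 0.0901), and so did the second array of the treated group alone (adjusted p = 0.0818 and 0.111).

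ACACA, the committed step, had levels of 10.59 and 10.46 with lipofection and 10.53 and 10.53 with PTD-DRBD, against 10.85 and 10.88 in control at 24 h. Treated and control arrays did not overlap. It fell by 0.33 with either route (SE 0.09), at an adjusted p of 0.0179 with lipofection and 0.0302 with PTD-DRBD. The second ACACA probe, with raw intensities of 91.2 to 117, changed by 0.03 with lipofection (SE 0.12, adjusted p = 0.895) and −0.00 with PTD-DRBD (adjusted p = 0.995). The probes thus disagree, and the mean of both gave −0.15 (adjusted p = 0.253) and −0.17 (adjusted p = 0.238). Without these second treated arrays the main probe gave −0.27 (adjusted p = 0.148) and −0.33 (adjusted p = 0.144). With the axis as a covariate both calls ended too, at −0.24 with lipofection (adjusted p = 0.0668) and −0.23 with PTD-DRBD (adjusted p = 0.155), and with only the arrays compared so did the one with PTD-DRBD (adjusted p = 0.0529). Leaving out either control array ended both calls (−0.35 to −0.32). The call with lipofection also ended without the second lipofection array (−0.27), and that with PTD-DRBD without either PTD-DRBD array (−0.34 and −0.33).

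SCD, the stearoyl-CoA desaturase, parted the routes at 24 h. Its levels were 14.18 and 14.08 with lipofection, 13.83 and 13.82 with PTD-DRBD and 14.12 and 14.24 in control. It fell by 0.36 with PTD-DRBD (SE 0.08, adjusted p = 0.0200) and changed by −0.06 with lipofection (adjusted p = 0.652, 95% interval −0.24 to 0.12). The direct comparison put SCD 0.30 higher with lipofection than with PTD-DRBD (SE 0.08, adjusted p = 0.0452). With the second treated arrays left out, the change with PTD-DRBD was −0.35 (adjusted p = 0.116) and the difference between routes 0.34 (adjusted p = 0.199). The fall with PTD-DRBD was −0.30 without the second control array (adjusted p = 0.124), −0.36 without the first PTD-DRBD array (adjusted p = 0.0526) and −0.35 without the second (adjusted p = 0.121). The axis covariate gave −0.26 (adjusted p = 0.0952), and only the arrays compared an adjusted p of 0.0523 for the fall and 0.151 for the route difference. This route difference also missed the threshold without any 1 of 10 arrays, 6 of them outside the comparison, at adjusted p between 0.0529 and 0.191.

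ELOVL6 went the other way between the routes. Its 24 h levels were 8.73 and 8.70 with lipofection, 9.07 and 9.01 with PTD-DRBD and 9.01 and 9.09 in control. It fell by 0.33 with lipofection (SE 0.08, adjusted p = 0.0124) and changed by −0.01 with PTD-DRBD (adjusted p = 0.923, 95% interval −0.19 to 0.16). Between the routes it was 0.32 lower with lipofection (SE 0.08, adjusted p = 0.0318). With those second arrays left out these were −0.32 (adjusted p = 0.0830) and −0.33 (adjusted p = 0.202). The fall with lipofection was −0.30 without the second control array (adjusted p = 0.0792) and −0.32 without the second lipofection array (adjusted p = 0.0718). With only the arrays compared the difference between routes did not pass (adjusted p = 0.130). It lay between −0.35 and −0.29 without any 1 of its 4 arrays (adjusted p between 0.0920 and 0.141).

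ME1 was the one gene of the 9 that stayed higher with lipofection. Its levels were 7.90 and 7.89 with lipofection, 7.30 and 7.28 with PTD-DRBD and 7.47 and 7.45 in control at 24 h, with no overlap between any 2 groups. It rose by 0.43 with lipofection, 1.35-fold (SE 0.07, adjusted p = 0.00190), and by as much without the second treated arrays (0.44, adjusted p = 0.0193). With PTD-DRBD the change was −0.18 and did not pass (SE 0.07, adjusted p = 0.111). Lipofection was above PTD-DRBD by 0.61, or 1.52-fold (SE 0.07, adjusted p = 0.000507).

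**Figure D3:**
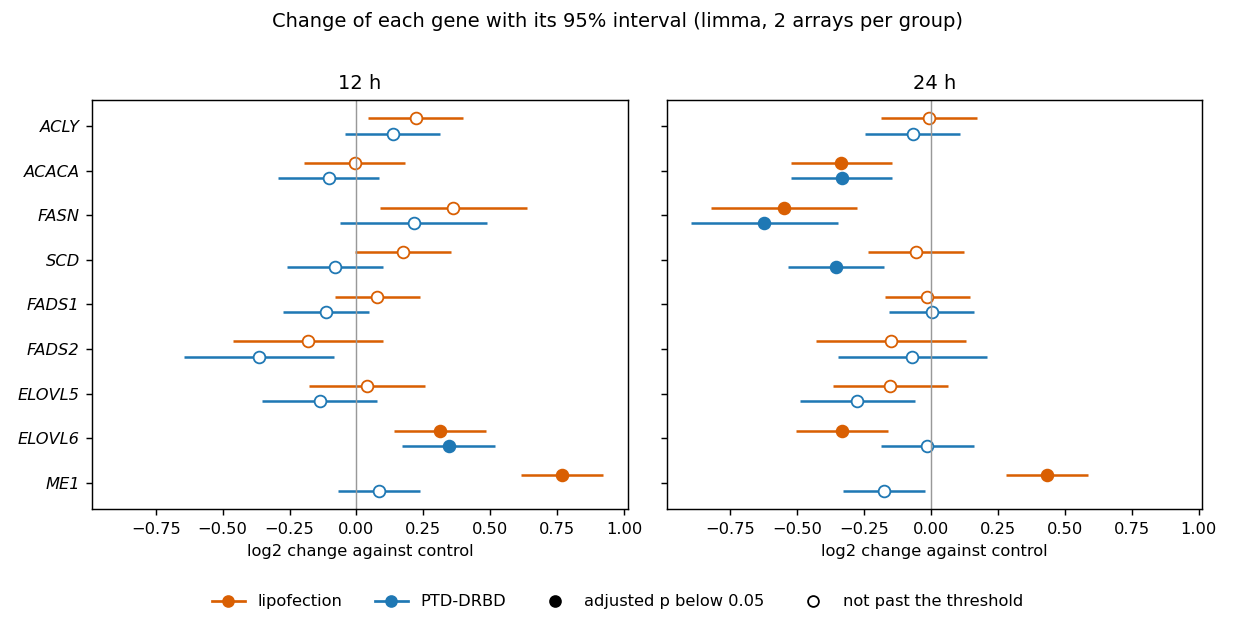
Log2 change against the control of the same time (x axis) for each of the 9 genes, with lipofection above PTD-DRBD; points are limma estimates from 2 arrays per group, lines are 95% intervals, and filled points have an adjusted p below 0.05. At 12 h the filled points, ELOVL6 and ME1, lie right of 0, while at 24 h FASN and ACACA lie left of 0 with both routes.

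The polyunsaturated branch gave no call. FADS1, the desaturase that yields arachidonic acid, changed by between −0.11 and 0.08 in the 4 comparisons with control (lowest adjusted p 0.384). Its 95% interval at 24 h ran from −0.17 to 0.15 with lipofection and from −0.16 to 0.16 with PTD-DRBD. ELOVL5, which lengthens polyunsaturated chains, changed most with PTD-DRBD at 24 h, by −0.27 (SE 0.10, adjusted p = 0.0826), where both treated arrays (11.68 and 11.55) lay below both controls (11.86 and 11.92). On the authors' normalized values this change was −0.30 and passed (adjusted p = 0.0209). With lipofection at 24 h ELOVL5 changed by −0.15, with its 2 arrays at 11.89 and 11.59. The change was −0.30 without the first lipofection array and −0.004 without the second, so it rests on 1 array. FADS2, which acts at the first desaturation of this branch, had raw intensities of 85.2 to 123, near the median of all probes. Its changes ran from −0.37 to −0.07, and the one of −0.37, with PTD-DRBD at 12 h, had an SE of 0.13 and an adjusted p of 0.107. ACLY at 24 h changed by −0.01 with lipofection and −0.07 with PTD-DRBD, with overlapping arrays in both comparisons. In simulated data for lipofection against control at 12 h, 50 genes were changed at each size. Of those changed by 0.3 on the log2 scale 20% were recovered, and of those changed by 0.5, 56%. Changes of this size can thus be missed in that setting. In the data 1439 genes passed in this comparison, so the shares there may differ. They are not shares for 24 h or for PTD-DRBD.

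The routes were compared at matched times over the same 9 genes. At 12 h ME1 was the 1 gene that passed, where 14.8% of all genes passed (6.51% higher and 8.29% lower with lipofection), and SCD was next, 0.25 higher with lipofection (SE 0.08, adjusted p = 0.0601, 95% interval 0.07 to 0.43). SCD passed in 6 of the other settings, at adjusted p between 0.00949 and 0.0480. At 24 h SCD, ME1 and ELOVL6 passed, where 8.25% of all genes passed (4.69% higher and 3.57% lower with lipofection). The arrays of the routes did not overlap for 5 of the 9 genes at 12 h, against 58% of all genes, and for 3 of the 9 at 24 h, against 49.8%. FASN differed between routes by 0.15 at 12 h (95% interval −0.12 to 0.42) and by 0.07 at 24 h (−0.20 to 0.35), and ACACA by 0.10 (−0.09 to 0.29) and −0.00 (−0.19 to 0.19). These intervals include 0 and leave room for differences of 0.19 to 0.42.

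Whether each effect differed between the times was tested as its own contrast. With lipofection FASN moved by −0.91 between the times, a change of −0.55 at 24 h against 0.36 at 12 h (SE 0.18, adjusted p = 0.0161). ELOVL6 moved by −0.64, a change of −0.33 at 24 h against 0.31 at 12 h (SE 0.11, adjusted p = 0.0103). These 2 of the 9 genes passed, where 7.99% of all genes did (3.97% higher and 4.02% lower). With PTD-DRBD none of the 9 passed, where 0.363% of all genes did (0.124% higher and 0.239% lower). FASN was nearest, at −0.84 (SE 0.18, adjusted p = 0.0576), which passed in 5 of the other settings, 1 of them without the first PTD-DRBD array at 24 h (−0.996, adjusted p = 0.0410). The FASN call with lipofection ended without the second control array or either lipofection array at 12 h, and without the second control or second lipofection array at 24 h (−0.94 to −0.80, adjusted p between 0.0516 and 0.0643).

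In untreated cells none of the 9 genes passed between 24 h and 12 h, where 8.71% of all genes did (4.15% higher and 4.56% lower). The control arrays of the times did not overlap for 3 of the 9, against 53% of all genes. ELOVL6 had the largest difference, with control levels of 9.01 and 9.09 at 24 h against 8.79 and 8.78 at 12 h (0.27, SE 0.08, adjusted p = 0.0595). It passed in 6 of the other settings, at adjusted p between 0.0259 and 0.0469. The ELOVL6 changes at 12 h and 24 h are thus taken against control arrays that did not overlap between the times. Over all 6 groups, FASN spanned 1.03 between its highest mean (lipofection at 12 h) and its lowest (PTD-DRBD at 24 h), and ME1 spanned 1.01 between lipofection at 12 h and PTD-DRBD at 24 h. SCD spanned 0.47, ELOVL6 0.41 and FADS1 0.21, where replicate SDs of these 5 genes lay between 0.01 and 0.23.

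**Figure D4:**
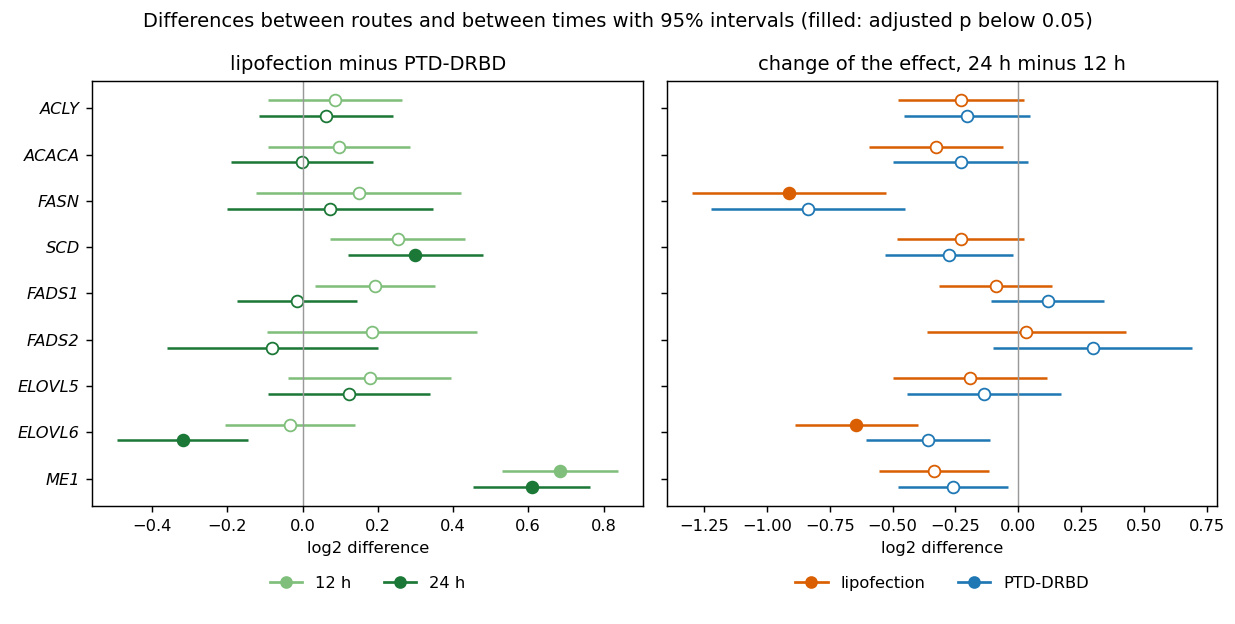
Left, the difference lipofection minus PTD-DRBD at each time; right, the change of each effect against control, 24 h minus 12 h; x axes are log2 differences, lines are 95% intervals, and filled points have an adjusted p below 0.05. ME1 is filled at both times on the left (0.68 and 0.61), and on the right the filled points are FASN (−0.91) and ELOVL6 (−0.64) with lipofection.

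Beyond the listed genes, counts of related genes that passed are read against the share of all genes, which was 11.9% with lipofection and 7.88% with PTD-DRBD at 12 h, and 23.6% with lipofection and 14% with PTD-DRBD at 24 h. Over the 33 named related genes, 14 calls with lipofection and 18 with PTD-DRBD were made against control at 24 h. Without the second treated arrays 3 of the 14 held with lipofection (FADS3, CYB5R3 and ACOX2) and 3 of the 18 with PTD-DRBD (ACSS2, INSIG2 and MGLL). With the axis as a covariate 6 held with lipofection and 5 with PTD-DRBD.

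Among the genes that control the pathway, the routes differed in 7 of 29 tested genes at 12 h and in 5 of 29 at 24 h. That is 24.1% and 17.2% of the list, where 14.8% and 8.25% of all genes differed between the routes. INSIG1, SREBF1 and PPARG passed at both times. With the second treated arrays left out, no gene of this list, these included, passed between the routes at 24 h. PPARG, a nuclear receptor named here after its values were seen, was lower with lipofection than with PTD-DRBD by 0.60 at 12 h and 0.29 at 24 h (log2 differences of −0.60 and −0.29, adjusted p = 0.000330 and 0.0297). INSIG1, which retains the SREBP complex and is itself an SREBP target, had levels of 11.91 and 11.96 with lipofection, 10.77 and 10.92 with PTD-DRBD and 11.03 and 11.15 in control at 12 h. It rose by 0.85 with lipofection (SE 0.09, adjusted p = 0.000191) and was 1.09 higher with lipofection than with PTD-DRBD (adjusted p = 3.45e-05). At 24 h INSIG1 changed by 0.06 with lipofection (adjusted p = 0.652) and fell by 0.37 with PTD-DRBD (SE 0.09, adjusted p = 0.0246). SREBF1 changed by 0.25 with lipofection at 12 h (adjusted p = 0.0530) and −0.15 with PTD-DRBD, and the routes differed by 0.41 (SE 0.08, adjusted p = 0.00514). At 24 h SREBF1 fell by 0.31 with PTD-DRBD (adjusted p = 0.0243) and stood 0.29 higher with lipofection than with PTD-DRBD (adjusted p = 0.0391). SREBF2 rose by 0.29 with lipofection at 24 h (SE 0.09, adjusted p = 0.0415). None of these 24 h calls of INSIG1, SREBF1 and SREBF2 held without the second treated arrays: the routes differed by 0.47 for INSIG1 (adjusted p = 0.103) and 0.22 for SREBF1 (adjusted p = 0.366), the PTD-DRBD changes were −0.32 and −0.29 (adjusted p = 0.141 each), and SREBF2 changed by 0.26 with lipofection (adjusted p = 0.151). In control cells SREBF1 and INSIG1 were each 0.57 higher at 24 h than at 12 h (adjusted p = 0.00115 and 0.00293).

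The list of 29 tested control genes holds genes of SREBP, LXR, ChREBP and AMPK control, and also PPAR genes, NF-Y subunits, SP1 and TRIB3. At 12 h 5 of them rose and 4 fell with lipofection, and 2 rose and 0 fell with PTD-DRBD. Of those that passed with lipofection at 12 h, TRIB3 and PPARA rose and PPARD, PPARG and PPARGC1B fell. At 24 h 4 rose and 4 fell with lipofection, and 0 rose and 4 fell with PTD-DRBD. That is 31% of the list with lipofection and 6.9% with PTD-DRBD at 12 h, and 27.6% with lipofection and 13.8% with PTD-DRBD at 24 h, close to the shares of all genes at 24 h. TRIB3, a stress-induced pseudokinase, rose with both routes at 12 h, by 0.95 with lipofection and 0.76 with PTD-DRBD (SE 0.09). LPIN1, a phosphatidate phosphatase and SREBP target, rose by 0.60 with lipofection at 12 h and changed by 0.03 with PTD-DRBD, a difference of 0.57 (SE 0.08, adjusted p = 0.00119). INSIG2 fell at 24 h with both routes, by 0.44 with lipofection and 0.61 with PTD-DRBD. Median changes of this list lay between −0.03 and 0.02 in the 4 comparisons with control. With the second treated arrays left out, 3 genes of the list rose and 0 fell with lipofection at 24 h, and 0 rose and 1 fell (INSIG2) with PTD-DRBD.

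Most genes that supply citrate, acetate and NADPH did not pass. Of 14 tested, 3 rose and 0 fell with lipofection and 1 rose and 0 fell with PTD-DRBD at 12 h, and 1 rose and 2 fell with lipofection and 0 rose and 4 fell with PTD-DRBD at 24 h. These are 21.4% of the list with lipofection at either time, and 7.14% at 12 h and 28.6% at 24 h with PTD-DRBD. IDH1, a cytosolic NADPH source, rose by 0.62 with lipofection at 12 h (SE 0.13, adjusted p = 0.0104) and fell at 24 h by 0.42 with lipofection and 0.63 with PTD-DRBD. ACSS2, which makes acetyl-CoA from acetate, rose at 12 h by 0.31 with lipofection and 0.29 with PTD-DRBD, and fell by 0.60 with PTD-DRBD at 24 h (SE 0.08, adjusted p = 0.00217). PGD, of the pentose phosphate route to NADPH, rose by 0.36 with lipofection at 12 h and fell by 0.24 with PTD-DRBD at 24 h. NNT, the mitochondrial transhydrogenase, fell by 0.39 with PTD-DRBD at 24 h. Leaving out the second treated arrays, 1 supply gene passed at 24 h, ACSS2 with PTD-DRBD (−0.63, adjusted p = 0.0213), and the list medians lay between −0.07 and 0.04 in the main comparisons.

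The remaining synthesis, elongation and desaturation lists are short, and their counts are given with the share of each list. MLYCD, which breaks malonyl-CoA down, fell at 12 h by 0.72 with lipofection (SE 0.09, adjusted p = 0.000552) and by 0.66 with PTD-DRBD (adjusted p = 0.00208), and by 0.43 with PTD-DRBD at 24 h. CBR4, of mitochondrial chain synthesis, fell at 24 h by 0.61 with lipofection and 0.44 with PTD-DRBD, and ACACB, the other acetyl-CoA carboxylase, by 0.40 with PTD-DRBD. OXSM, the mitochondrial condensing enzyme, rose by 0.36 with PTD-DRBD at 12 h. Of 9 tested genes of this synthesis list 0 rose and 1 fell with lipofection and 1 rose and 1 fell with PTD-DRBD at 12 h. At 24 h 0 rose and 1 fell with lipofection and 0 rose and 3 fell with PTD-DRBD. These are 11.1% of the list with lipofection at either time, and 22.2% at 12 h and 33.3% at 24 h with PTD-DRBD. Of all genes 11.9% passed with lipofection and 7.88% with PTD-DRBD at 12 h, and 23.6% and 14% at 24 h. HSD17B12, the reductase of the elongation cycle, rose by 0.45 with lipofection at 12 h and fell by 0.37 with PTD-DRBD at 24 h. ELOVL7 fell at 12 h by 0.35 with lipofection and 0.38 with PTD-DRBD. At 24 h with lipofection the dehydratase HACD2 fell by 0.40 and HACD3 rose by 0.25. In the elongation list of 9 tested genes 1 rose and 1 fell with lipofection at each time. With PTD-DRBD 0 rose and 1 fell at each time. That is 22.2% of the list with lipofection and 11.1% with PTD-DRBD.

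FADS3, the third member of the FADS cluster, fell with lipofection at 12 h by 0.45, and at 24 h by 0.54 with lipofection and 0.52 with PTD-DRBD (SE 0.09). Of the genes that feed electrons to the desaturases, the reductase CYB5R3 rose at 24 h by 0.49 with lipofection and 0.28 with PTD-DRBD, CYB5R1 rose by 0.30 with lipofection at 12 h and CYB5B fell by 0.25 with lipofection at 24 h. Of 7 tested genes of this list 1 rose and 1 fell with lipofection and 0 passed with PTD-DRBD at 12 h. At 24 h 1 rose and 2 fell with lipofection and 1 rose and 1 fell with PTD-DRBD. With lipofection that is 28.6% of the list at 12 h and 42.9% at 24 h, against 11.9% and 23.6% of all genes. With PTD-DRBD it is 0% and 28.6%, against 7.88% and 14% of all genes. Without the second treated arrays FADS3 (−0.54, adjusted p = 0.0162) and CYB5R3 (0.37, adjusted p = 0.0327) still passed with lipofection, and none of the 7 passed with PTD-DRBD. No gene of the synthesis or elongation lists passed at 24 h without these arrays.

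Genes for the use of the acids were also read, at the RNA level only. In lipid assembly and breakdown, MGLL, the monoacylglycerol lipase, moved in opposite directions: at 12 h it fell by 0.60 with lipofection (SE 0.09, adjusted p = 0.00146) and rose by 0.65 with PTD-DRBD (adjusted p = 0.00196), a difference of −1.25 (adjusted p = 1.43e-05). At 24 h MGLL rose by 0.55 with PTD-DRBD, also without the second treated arrays (0.54, adjusted p = 0.0392). GPAT3, which starts glycerolipid assembly, rose at 12 h by 0.51 with lipofection and 0.61 with PTD-DRBD. AGPAT4, the next acyltransferase, fell by 0.43 with PTD-DRBD at 12 h, and the lung surfactant acyltransferase LPCAT1 fell by 0.35 with lipofection at 24 h, a call that did not hold without the second treated arrays (−0.37, adjusted p = 0.0595). Of 19 tested genes of this list 1 rose and 1 fell with lipofection and 2 rose and 1 fell with PTD-DRBD at 12 h, and at 24 h 2 rose and 1 fell with lipofection and 1 rose and 0 fell with PTD-DRBD. The fatty acid transporter SLC27A2 fell with lipofection by 0.76 at 12 h and 0.57 at 24 h, and SLC27A1 fell with PTD-DRBD by 0.40 at 12 h and 0.41 at 24 h. The thioesterase ACOT9 rose by 0.38 with PTD-DRBD at 24 h. In this list of 13 tested activation and carrier genes 0 rose and 1 fell in each comparison with control, apart from 1 rise and 1 fall with PTD-DRBD at 24 h. None of its 24 h calls held without the second treated arrays, where SLC27A2 changed by −0.37 with lipofection (adjusted p = 0.119), and SLC27A1 by −0.47 (adjusted p = 0.0827) and ACOT9 by 0.38 (adjusted p = 0.170) with PTD-DRBD.

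Of 27 tested genes of fatty acid oxidation, 1 rose and 1 fell with lipofection and 1 rose and 2 fell with PTD-DRBD at 12 h, and at 24 h 1 rose and 4 fell with lipofection and 0 rose and 2 fell with PTD-DRBD. CPT2, the inner carnitine transferase, rose by 0.31 with PTD-DRBD at 12 h and by 0.31 with lipofection at 24 h. HADHA, of the mitochondrial trifunctional protein, rose by 0.33 with lipofection at 12 h and fell by 0.29 with PTD-DRBD at 24 h. At 24 h with lipofection the peroxisomal oxidase ACOX2 fell by 0.46 and ACAD10, an acyl-CoA dehydrogenase, by 0.29, and ACAD10 fell by 0.32 with PTD-DRBD. List medians in the 4 comparisons with control lay between −0.06 and 0.07. ACOX2 with lipofection was the 1 oxidation gene that passed at 24 h without the second treated arrays. Over the 9 comparisons the 33 named related genes gave 100 calls in 297 values, and 31 of these held without each array in turn. Most of these genes are named because they passed with the largest change in their list, so this share is not that of a list.

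**Figure D5:**
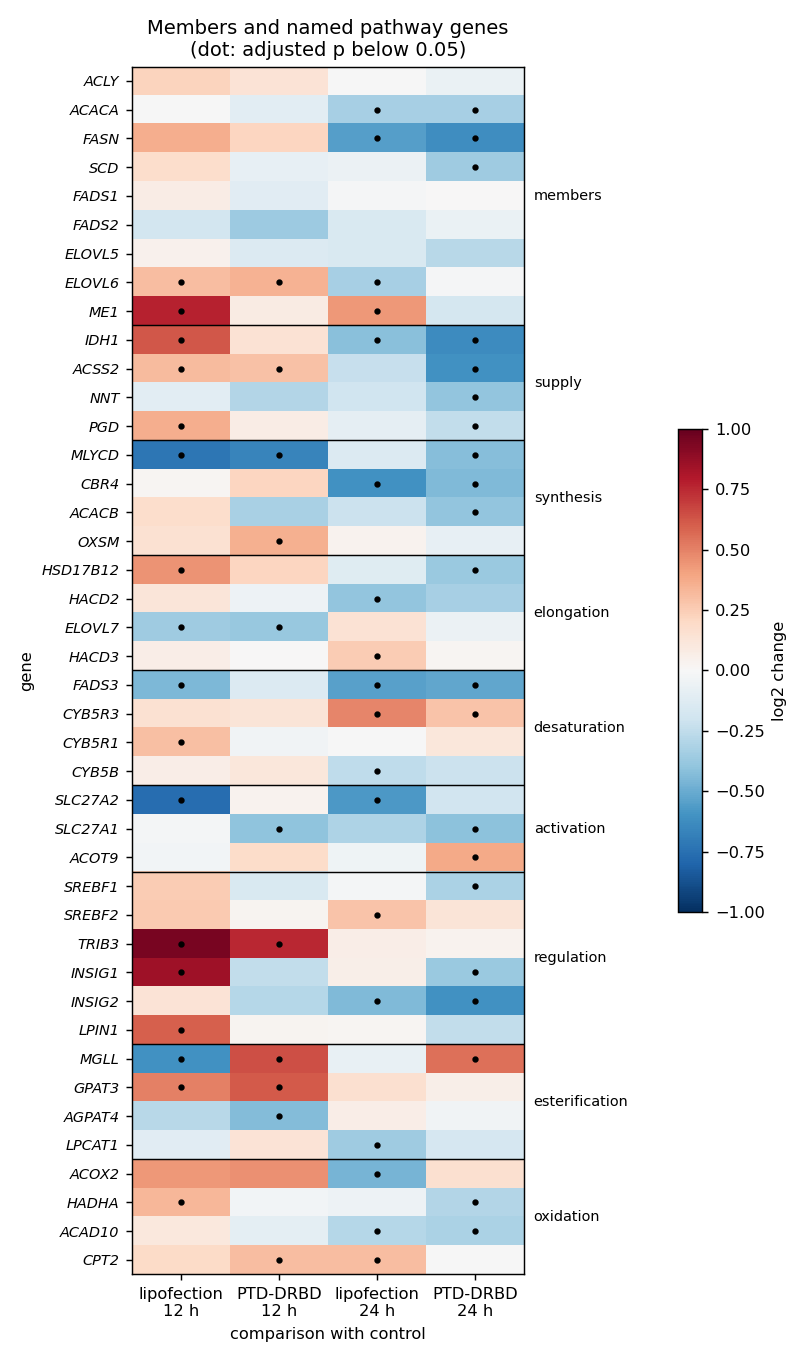
Log2 change against control (colour) of the 9 genes and of the named genes of each pathway list (rows) in the 4 comparisons with control (columns), with a dot where the adjusted p was below 0.05. ME1, TRIB3, INSIG1, LPIN1 and IDH1 are the deepest red with lipofection at 12 h, and FASN, IDH1, ACSS2 and INSIG2 are blue with PTD-DRBD at 24 h.

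Over the 12 arrays the genes whose levels ran most like each changed gene were described by Pearson's r, with the 6 groups and the replicate axis shared by all points. For ME1 these were RND3 (r = 0.966), GSR (0.962), which is glutathione reductase, and CSRNP1 (0.958). For FASN they were KIF5B (0.976), TBC1D22B (0.965) and SLC38A1 (0.961), and for ACACA NIBAN2 (0.976), PHKA2 (0.966) and SSR1 (0.962). For SCD they were PI4K2A (0.973), ZNF436 (0.957) and TUG1 (0.947), and for ELOVL6 TBCEL (0.919), MRRF (0.871) and PRPF19 (0.861).

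In the authors' deposited table, which keeps probes past 1.6-fold, there are 105 probes for lipofection and 45 for PTD-DRBD at 12 h, and 179 for lipofection and 55 for PTD-DRBD at 24 h. None of the 10 probes of the fatty acid genes is in it. ME1 stood at 357.9 and 357.3 with lipofection and 219.1 and 234.2 in control at 12 h on the authors' linear values. Its 1.70-fold rise above is of the background-corrected levels. Of the related genes, the authors' deposited table gives TRIB3 at 1.86-fold and INSIG1 at 1.78-fold with lipofection, and TRIB3 at 1.64-fold and MGLL at 1.71-fold with PTD-DRBD, all at 12 h.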

How the data were processed

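The deposited non-normalized table holds, for each of 48701 probes and 12 arrays, the raw intensity read with BeadStudio, per the submitters' processing notes, and a detection p-value that the authors deposited beside it. The authors also deposited normalized intensities, which are linear with array medians of 65.6 to 65.8. Their normalization method is, in the sources used here, not given. A further table by the authors holds a signed fold, treated here as a score, for probes past 1.6-fold.

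Raw intensities were background-corrected with the detection p-values, quantile normalized with an offset of 16 and put on the log2 scale with neqc of limma 3.58.1 (R 4.3.3). These log2 values come from the deposited intensities and were not made by the authors. A probe was kept if at least 1 group detected it on both arrays (19631, or 40.3%), and the brightest of the 14043 with 1 gene stood for each of 12117 genes. Of all probes 23687 had 1 gene in the platform annotation, 35 several and 24979 none. Group means were fitted over all 12 arrays (6 residual and 5.30 prior degrees of freedom), two-sided, with Benjamini-Hochberg adjustment within each comparison. Replicate arrays correlated at 0.997 to 0.998, with median replicate SDs of 0.05 to 0.08 on the log2 scale. Replicate numbers only name arrays, in the order of accessions.

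All listed genes, GAPDH, SREBF1, SREBF2 and INSIG1 are named, with up to 4 genes of each pathway list, those with the largest change among genes that passed against control. Clone and hypothetical names were passed over among the genes of like pattern. The genes and lists were chosen with earlier results of these data known. Test settings were run on simulated data, where 20, 56, 84 and 96% of genes changed by 0.3, 0.5, 0.8 and 1.2 were recovered for lipofection against control at 12 h over 12117 genes, with a false share of 4.48%. Alternatives were other normalizations, the authors' values, other filters and probe rules, other fits, the replicate axis as a covariate, arrays left out, and, added after the data were seen, a correction for gene length and the same settings for the named pathway genes. Promoters are from RefSeq GRCh38.p14, and probe positions were not used here.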

Additional observations from a re-analysis of the deposited data

Results flagged for a closer look

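These effects against control differed between 24 h and 12 h by a limma test of the difference itself (adjusted p below 0.05), and each value is the change at 24 h minus the change at 12 h on the log2 scale, so a negative value means a lower effect at 24 h. Among the fatty acid genes with lipofection they were FASN at −0.91 and ELOVL6 at −0.64. Among genes that supply acetyl-CoA and NADPH, lipofection gave IDH1 at −1.04, ACSS2 at −0.54 and PGD at −0.45. Among the named genes that control the pathway, lipofection gave TRIB3 at −0.88, INSIG1 at −0.78, LPIN1 at −0.58 and INSIG2 at −0.58. The oxidase ACOX2 moved by −0.89 with lipofection. Positive differences with lipofection among the named genes were those of MLYCD at 0.58, MGLL at 0.53 and ELOVL7 at 0.50. Other genes of the lists passed too with lipofection. PPARD and PPARGC1B, control genes, had positive differences. SCAP, another control gene, and SLC27A3, of the activation list, had negative ones. With PTD-DRBD the differences that passed were those of ACSS2 at −0.90 and TRIB3 at −0.72. The effects of both routes are taken against the same 4 control arrays. In these SREBF1, INSIG1, INSIG2 and LPIN1 were higher at 24 h than at 12 h, by 0.57, 0.57, 0.74 and 0.45. MLYCD was lower in them, at −0.91. ACOX2 also passed as higher and ELOVL7 as lower in control at 24 h. Control levels of ELOVL7 were 7.028 and 6.871 at 12 h and 6.525 and 6.493 at 24 h. Its levels with lipofection were 6.555 and 6.639 at 12 h and 6.739 and 6.564 at 24 h.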

How the results depend on the processing

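All 16 calls among the 9 fatty acid genes kept their sign in each of 24 other settings, 12 of which left out 1 array, and 5 kept their call without each array in turn (ME1 in 4 comparisons and the change of the ELOVL6 effect with lipofection between times). ME1 with lipofection at 12 h, against control and against PTD-DRBD, kept its call in all 24, and 9 of 65 other values passed somewhere. The number of the 9 genes called, or which ones they were, moved as follows, and causes were not tested unless the setting itself removes calls or arrays. A rule of at least 1.6-fold left 1 of 2 calls with lipofection and 0 of 1 with PTD-DRBD at 12 h, 0 of 4 and 0 of 3 at 24 h, 0 of 3 between routes at 24 h and 1 of 2 for the change of the lipofection effect. Only the arrays compared gave 2 with lipofection at 12 h, where FASN passed in place of ELOVL6, 0 with PTD-DRBD at 12 h, 1 with PTD-DRBD at 24 h and 1 between routes at 24 h. With the second lipofection and PTD-DRBD arrays at 24 h left out, 1 gene was called with lipofection, 0 with PTD-DRBD and 1 between routes at 24 h. Quantile normalization without background correction, the authors' values and moderation with an intensity trend gave 4 with lipofection at 12 h, 3, 2 and 2 between routes at 12 h, 1 each between the control times and 1 each for the change of the PTD-DRBD effect. Detection on all 12 arrays gave 2 between routes at 12 h, 1 between control times and 1 for the change of the PTD-DRBD effect. The axis covariate gave 0 with PTD-DRBD at 24 h, 3 with lipofection at 24 h (ACACA lost) and 3 with lipofection at 12 h (FASN gained), and it and the correction for gene length each gave 2 between routes at 12 h and 1 between control times. Without each array in turn the counts ran from 1 to 2 with lipofection and 0 to 1 with PTD-DRBD at 12 h, 1 to 5 and 0 to 4 at 24 h, 1 to 1 and 1 to 3 between routes at 12 h and 24 h, 0 to 0 between control times, and 1 to 2 and 0 to 1 for the changes of the lipofection and PTD-DRBD effects. Smaller moves were the loss of ACACA at 24 h with the mean of its probes, and gains in 3 settings each of ELOVL5 with PTD-DRBD at 24 h and of ME1 for the change of the lipofection effect. A group left with 1 array was assumed to vary like the others. Of 100 calls in 297 values of the 33 named pathway genes, all kept their sign and 12 their call in every setting run on that gene. No paired analysis was possible because replicate numbers only name arrays. FADS2 and the second ACACA probe lie near background, which limits what their changes can show. Some named pathway genes were dim too, and the same limit holds for them. At 12 h with PTD-DRBD the raw intensities were 99.7 and 114.6 for SLC27A1, 115.9 and 147.3 for AGPAT4 and 127.9 and 148.9 for ELOVL7. With lipofection at 12 h they were 133.8 and 140.2 for SLC27A2 and 127.7 and 132.8 for MGLL.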
